A study of Mus musculus with 4 samples.

Results

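Genes of the hypoxia response and of glycolysis were followed in cultured mouse mammary fibroblasts of 4 genotypes. The group was drawn up as 34 genes, and a member's value is that of its probe set (a set of short oligonucleotides on the array that together read 1 transcript) with the highest mean over the 4 arrays, among probe sets annotated to that gene alone. A value was had for 31 of the 34 members, of 18194 genes in all. These comprise 4 genes of oxygen sensing (Hif1a, Epas1, Egln1 and Egln3), 11 glycolytic enzymes, 6 transporters and regulators of flux, and 10 other targets of the hypoxia response. *Bnip3l* was left out because its 3 probe sets were shared with another gene symbol, and *Gpi1* and *Eno1* had no probe set annotated to them alone. The fibroblasts came from mammary tissue of female FVB/N mice aged 16 weeks, and the RNA of each genotype was read on 1 Affymetrix array. The comparisons ask what differed in these genes without *Ets2*, a transcription factor downstream of Ras and MAPK signalling, in fibroblasts taken from mice with the ErbB2 oncogene in the mammary epithelium and in fibroblasts of mice with no oncogene (called normal here).

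All 4 genotypes carried Ets2db/loxP, that is, 1 knockout allele lacking the DNA-binding domain and 1 allele flanked by loxP sites, so that the fibroblasts called Ets2 present had a single intact copy. The Ets2 null fibroblasts also carried Fsp-Cre, a Cre recombinase under the fibroblast specific protein promoter, and were labelled ErbB2;Fsp-cre;Ets2db/loxP or FspCre;Ets2db/loxP. Their controls were ErbB2;Ets2db/loxP and Ets2db/loxP. The oncogene was MMTV-ErbB2, whose promoter is active in mammary epithelial cells. After digestion and gravity separation the stromal cells were plated in serum, and cells of the second passage were used, so that the values describe fibroblasts in culture and not in the gland. Since a genotype had a single array, no replicate error could be had and no test was possible. Every difference below is therefore between 2 arrays, on the log2 scale, set beside the spread of all genes.

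Cells answer low oxygen mainly through the hypoxia inducible factors. The alpha subunits, encoded by *Hif1a* and *Epas1*, are made continuously and are hydroxylated by the Egln enzymes in the presence of oxygen, which marks them for destruction. When oxygen falls they persist, pair with Arnt and bind short hypoxia response elements near their target genes. Among these targets are glucose transporters, nearly every enzyme of glycolysis, the lactate exporter *Slc16a3*, and *Pdk1*, which inhibits pyruvate dehydrogenase. Other targets slow growth, remove mitochondria or modify collagen. The mRNA level of *Hif1a* says little of the activity of its protein, which was not measured here.

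The arrays were closely matched in scale. Their medians over all probe sets lay between log2 5.51 and 5.54, and 42.5 to 42.8% of probe sets reached log2 6, which was taken as the lower limit of a usable signal. Of the 13 fibroblast markers, every one reached log2 6 on 3 arrays, and all but *Fap* did so on the normal Ets2 null array. The brightest *Ets2* probe set read 8.31 on the ErbB2 Ets2 null array, 8.34 on the ErbB2 Ets2 present array, 8.35 on the normal Ets2 null array and 8.14 on the normal Ets2 present array, so the level of *Ets2* did not separate the genotypes. Where this probe set lies relative to the deleted part of the gene was not examined, and it does not serve as a check of the labels. Markers of other cells read unequally on the arrays. The log2 of the summed level of 10 mammary epithelial markers was 9.58 in ErbB2 Ets2 null, 11.34 in ErbB2 Ets2 present, 11.62 in normal Ets2 null and 10.14 in normal Ets2 present fibroblasts. *Krt8* followed the same order, at 6.15, 9.25, 9.73 and 6.65, while *Cdh1* and *Cldn7* were under log2 6 on every array. The brighter of 2 probe sets of *Epcam* lay between 7.98 and 8.32. The study lists another probe set of *Epcam* as higher without *Ets2* on the normal arrays, so the flat reading does not hold for every probe set.

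The promoters of the members hold the letters to which the hypoxia inducible factors bind more often than those of other genes. Windows of 300 bases (250 before and 50 after the start of transcription) were read from RefSeq on build GRCm38.p6 for 29 of the 34 members. No window was had for *Ndrg1*, *Epas1*, *Angptl4*, *Slc2a3* and *Bnip3l*. The core of the response element was searched as ACGTG and as GCGTG on both strands. At least 1 window held a core in 27 of 29 members (93.1%), against 46.7% of all 27025 genes of the table and 59.3% of the 14453 that had a value on the arrays. The members' windows are also rich in CG pairs, with a median of 23 against 16 for genes on the arrays, and each core holds 1 such pair. Among windows with 20 to 40 CG pairs, 23 of the 26 members' windows (88.5%) held a core, against 73.4% of 7565. *Tpi1* and *Gpi1* had no core. Windows of 1 gene can overlap and count the same core again, as some of *Aldoa* and *Eno1* do. A gene with more windows also has more places for a core. The members had 41 windows for 29 genes, against 18110 for the 14453 genes on the arrays. A match describes the letters of the window only, and ACGTG is also part of the E-box CACGTG, which other factors bind.

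The promoters of 4 members are shown as examples of patterns among the arrays described below, namely *Ddit4* and *Bnip3* (lowest in normal Ets2 null), *Slc16a3* (high in normal Ets2 present) and *Adm* (low in ErbB2 Ets2 null). The pattern of *Epas1* is not among them. Each is read 5′ to 3′ on the strand of the gene, with the cores in capitals (CACGT and CACGC are cores on the opposite strand). That of *Ddit4*, at chr10:59951721-59952020 on the minus strand, holds ACGTG 187 bases and GCGTG 115 bases before the start. That of *Bnip3*, at chr7:138909457-138909756 on the minus strand, holds 5 cores within 117 bases of the start, of which a pair overlap as CACGTG. That of *Slc16a3*, at chr11:120948817-120949116 on the plus strand, holds ACGTG 27 and 14 bases before the start. That of *Adm*, at chr7:110627407-110627706 on the plus strand, holds only GCGTG, on the opposite strand, 90 and 54 bases before the start.
Ddit4: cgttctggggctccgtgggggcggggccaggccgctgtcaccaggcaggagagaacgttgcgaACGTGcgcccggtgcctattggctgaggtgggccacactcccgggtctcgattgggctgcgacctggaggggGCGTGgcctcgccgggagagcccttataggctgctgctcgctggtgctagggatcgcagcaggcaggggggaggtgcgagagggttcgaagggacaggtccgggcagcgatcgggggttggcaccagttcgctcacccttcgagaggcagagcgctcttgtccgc
Bnip3: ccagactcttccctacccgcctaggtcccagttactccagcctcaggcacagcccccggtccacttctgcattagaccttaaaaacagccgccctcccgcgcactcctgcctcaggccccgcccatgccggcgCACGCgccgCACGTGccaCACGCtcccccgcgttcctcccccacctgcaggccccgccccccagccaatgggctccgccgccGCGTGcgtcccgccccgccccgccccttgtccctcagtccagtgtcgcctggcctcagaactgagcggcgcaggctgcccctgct
Slc16a3: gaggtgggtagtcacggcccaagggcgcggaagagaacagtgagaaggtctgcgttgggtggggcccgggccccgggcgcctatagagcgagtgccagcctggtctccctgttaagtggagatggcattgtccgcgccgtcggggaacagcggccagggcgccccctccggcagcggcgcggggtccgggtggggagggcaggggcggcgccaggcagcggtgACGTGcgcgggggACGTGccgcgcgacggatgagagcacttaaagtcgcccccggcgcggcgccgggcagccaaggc
Adm: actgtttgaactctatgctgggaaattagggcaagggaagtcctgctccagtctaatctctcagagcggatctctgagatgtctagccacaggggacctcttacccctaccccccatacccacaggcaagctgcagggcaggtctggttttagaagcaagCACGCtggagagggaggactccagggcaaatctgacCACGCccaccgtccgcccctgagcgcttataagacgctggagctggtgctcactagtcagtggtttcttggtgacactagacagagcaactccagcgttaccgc

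Across the 4 arrays the members as a group stood highest in normal fibroblasts with *Ets2*. Of the 31 members, 3 were highest on the ErbB2 Ets2 null array, 6 on the ErbB2 Ets2 present array, 2 on the normal Ets2 null array and 20 on the normal Ets2 present array. The last share, 64.5%, compares with 21.8% of all genes. The lowest value fell on the ErbB2 Ets2 null array for 14 members (45.2%, against 23.7% of all genes) and on the normal Ets2 null array for 13 (41.9%, against 24.9%). The order is a description of these 4 arrays, and in a flat member such as *Pfkp* each array lay within 0.10 of its neighbour in the order. The range of a member over the 4 arrays lay between 0.16 for *Pfkp* and 1.65 for *Ndrg1*, with a median of 0.47 against 0.33 over all genes. In total RNA of a culture, fewer cells of a type and less RNA per cell cannot be told apart.

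**Figure D1:**
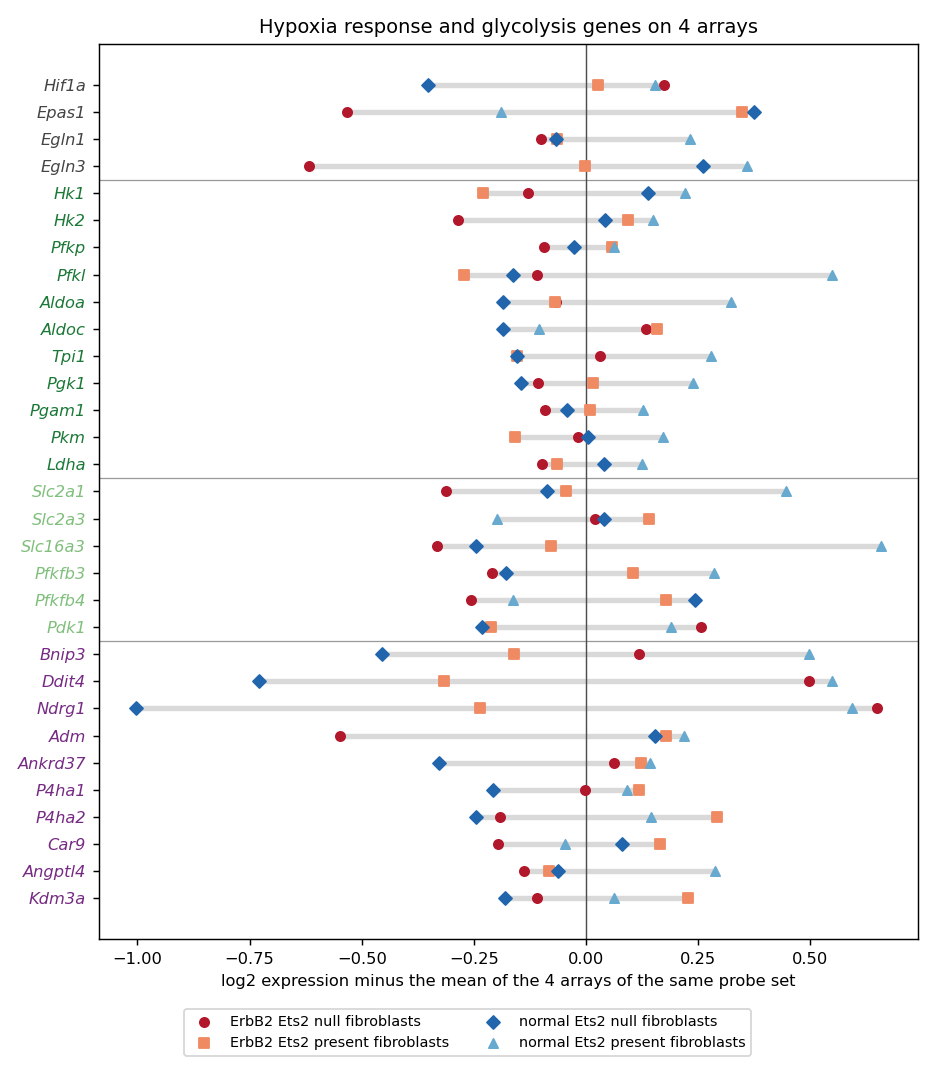
Each row is 1 of the 31 members, ordered by role (sensors, glycolytic enzymes, transport and flux regulators, other targets), and each point is the log2 value on 1 of the 4 arrays minus the mean of that member's 4 arrays, with the grey line spanning its range. The light blue triangles of normal Ets2 present fibroblasts lie at the right end of 20 rows, and the widest rows are *Ndrg1* and *Ddit4*.

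Among the genes of oxygen sensing, *Hif1a* and *Epas1* differed in opposite directions. *Hif1a*, which encodes the alpha subunit found in most cell types, read 11.30 in ErbB2 Ets2 null, 11.15 in ErbB2 Ets2 present, 10.77 in normal Ets2 null and 11.28 in normal Ets2 present fibroblasts. It was thus low on the normal Ets2 null array alone, with a log2 difference without *Ets2* of 0.15 in ErbB2 fibroblasts and -0.51 in normal fibroblasts. The other 2 probe sets of *Hif1a* that reached log2 6 gave 0.35 and 0.25 in ErbB2 fibroblasts and -0.37 and -0.52 in normal fibroblasts. *Epas1*, which encodes HIF-2α, an alpha subunit best known from endothelium, read 7.89 in ErbB2 Ets2 null, 8.77 in ErbB2 Ets2 present, 8.80 in normal Ets2 null and 8.24 in normal Ets2 present fibroblasts. Its difference without *Ets2* was -0.88 in ErbB2 fibroblasts, or 1.84-fold lower, and 0.56 in normal fibroblasts, or 1.48-fold higher. The second probe set of *Epas1* stayed under log2 6 on every array. The log2 of the summed level of 8 endothelial markers was 9.85 in ErbB2 Ets2 null, 10.24 in ErbB2 Ets2 present, 10.13 in normal Ets2 null and 10.64 in normal Ets2 present fibroblasts. *Pecam1*, *Tek* and *Tie1* were under log2 6 on at least 3 of the 4 arrays. The endothelial sum did not follow the order of *Epas1*, whereas the epithelial sum given above had the same order of arrays as *Epas1*. So did the sum of 11 skeletal muscle markers, at 10.17, 11.72, 12.12 and 11.34 on the arrays in the order just given. Of that sum, *Acta1* alone read 11.89 on the normal Ets2 null array. The part of these cell types in *Epas1* was not tested.

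The prolyl hydroxylases varied less or were dim. *Egln1*, the main oxygen sensor of most cells, read 8.82 in ErbB2 Ets2 null, 8.86 in ErbB2 Ets2 present, 8.85 in normal Ets2 null and 9.15 in normal Ets2 present fibroblasts, and stood apart only on the last of these. *Egln3*, a hydroxylase that is itself a target of the factors, read 5.91 in ErbB2 Ets2 null, 6.52 in ErbB2 Ets2 present, 6.78 in normal Ets2 null and 6.88 in normal Ets2 present fibroblasts. Because the first of these is under log2 6, its difference of -0.61 without *Ets2* in ErbB2 fibroblasts is not exact.

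The genes that bring glucose in and carry lactate out were highest in normal Ets2 present fibroblasts, with *Slc2a3* as the exception. *Slc2a1*, the glucose transporter of most growing cells, read 9.86 in ErbB2 Ets2 null, 10.13 in ErbB2 Ets2 present, 10.09 in normal Ets2 null and 10.62 in normal Ets2 present fibroblasts. Without *Ets2* it differed by -0.27 in ErbB2 fibroblasts and -0.53 in normal fibroblasts, and all 3 of its probe sets were below 0 in each. *Slc2a3*, a transporter of high affinity known from neurons, lay between 6.44 and 6.78. *Slc16a3*, the lactate exporter of glycolytic cells, read 7.42 in ErbB2 Ets2 null, 7.67 in ErbB2 Ets2 present, 7.50 in normal Ets2 null and 8.41 in normal Ets2 present fibroblasts. The normal Ets2 present array stood clear of the other 3, which lay within 0.25 of each other. The difference without *Ets2* was -0.25 in ErbB2 fibroblasts and -0.90 in normal fibroblasts, the second being 1.87-fold lower.

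The enzymes of glycolysis are given in the order of the pathway. *Hk1* and *Hk2*, the hexokinases that trap glucose in the cell, differed without *Ets2* by 0.10 and -0.38 in ErbB2 fibroblasts and by -0.08 and -0.11 in normal fibroblasts. Of the phosphofructokinases, which catalyse the committed step, *Pfkp* lay within 0.16 over the 4 arrays. *Pfkl* read 9.64 in ErbB2 Ets2 null, 9.48 in ErbB2 Ets2 present, 9.59 in normal Ets2 null and 10.30 in normal Ets2 present fibroblasts. It was the enzyme with the widest range, again through the normal Ets2 present array alone, and its difference without *Ets2* was 0.16 in ErbB2 fibroblasts and -0.71 (1.64-fold lower) in normal fibroblasts. A second probe set of *Pfkl* that reached log2 6 gave 0.16 and -0.78.

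*Aldoa*, the aldolase of most tissues, read 12.87 in ErbB2 Ets2 null, 12.87 in ErbB2 Ets2 present, 12.75 in normal Ets2 null and 13.26 in normal Ets2 present fibroblasts. Its difference without *Ets2* was 0.00 in ErbB2 fibroblasts and -0.51 in normal fibroblasts, though its 5 probe sets ranged from -0.07 to 0.43 in the first and from -0.65 to 0.01 in the second. *Aldoc*, the aldolase of brain, stayed under log2 6 on every array. *Tpi1*, the triose phosphate isomerase, read 12.26 in ErbB2 Ets2 null, 12.08 in ErbB2 Ets2 present, 12.08 in normal Ets2 null and 12.51 in normal Ets2 present fibroblasts, with a difference without *Ets2* of 0.18 in ErbB2 fibroblasts and -0.43 in normal fibroblasts. *Pgk1*, a kinase of the pathway that makes ATP, read 13.25 in ErbB2 Ets2 null, 13.37 in ErbB2 Ets2 present, 13.21 in normal Ets2 null and 13.60 in normal Ets2 present fibroblasts. *Aldoa*, *Tpi1* and *Pgk1* were all highest on the normal Ets2 present array, as were the measured steps that follow. The difference of *Pgk1* without *Ets2* in normal fibroblasts was -0.38, while its other probe sets gave -0.09 and -0.19. *Pgam1*, *Pkm* (pyruvate kinase) and *Ldha*, the lactate dehydrogenase that turns pyruvate into lactate, differed without *Ets2* by -0.10, 0.14 and -0.03 in ErbB2 fibroblasts and by -0.17, -0.17 and -0.09 in normal fibroblasts. *Ldha* lay within 0.22 over the 4 arrays. A promoter window of *Ldha* held 7 cores, some of which overlap as CACGTG, and their relation to its level was not tested.

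The regulators of flux did not move as 1 group. *Pfkfb3* and *Pfkfb4* make and break the fructose bisphosphate that activates phosphofructokinase. *Pfkfb3* read 6.58 in ErbB2 Ets2 null, 6.89 in ErbB2 Ets2 present, 6.61 in normal Ets2 null and 7.07 in normal Ets2 present fibroblasts, and its differences without *Ets2* were -0.31 in ErbB2 fibroblasts and -0.46 in normal fibroblasts. *Pfkfb4* read 7.47 in ErbB2 Ets2 null, 7.90 in ErbB2 Ets2 present, 7.97 in normal Ets2 null and 7.56 in normal Ets2 present fibroblasts, so that its difference was -0.44 in ErbB2 fibroblasts and 0.40 in normal fibroblasts. *Pdk1* ran the other way. It read 7.63 in ErbB2 Ets2 null, 7.16 in ErbB2 Ets2 present, 7.14 in normal Ets2 null and 7.56 in normal Ets2 present fibroblasts, with differences of 0.47 in ErbB2 fibroblasts and -0.42 in normal fibroblasts. A second probe set of *Pdk1*, which reached log2 6 on the normal Ets2 present array only, gave 0.01 and -0.88, neither of them exact.

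In normal fibroblasts without *Ets2* the members furthest from 0 were *Ndrg1*, *Ddit4* and *Bnip3*, whose products belong to the slowing of growth and to mitochondrial turnover. *Ndrg1*, a stress-responsive gene induced by low oxygen, read 8.50 in ErbB2 Ets2 null, 7.61 in ErbB2 Ets2 present, 6.85 in normal Ets2 null and 8.44 in normal Ets2 present fibroblasts. It was high on the ErbB2 Ets2 null and normal Ets2 present arrays and lowest on the normal Ets2 null array. Without *Ets2* it was 1.85-fold higher in ErbB2 fibroblasts (log2 difference 0.88) and 3.02-fold lower in normal fibroblasts (-1.60). The study lists *Ndrg1* among the genes it chose on the normal arrays, so that its value there is not independent of that choice. All 5 probe sets of *Ndrg1* gave the same directions, from 0.79 to 1.12 in ErbB2 fibroblasts and from -2.08 to -0.89 in normal fibroblasts, the extreme of -2.08 resting on a normal Ets2 null value of 5.26.

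*Ddit4*, which encodes REDD1, an inhibitor of mTORC1 signalling under low oxygen and other stress, had the same order of arrays but for the top pair. It read 10.17 in ErbB2 Ets2 null, 9.36 in ErbB2 Ets2 present, 8.95 in normal Ets2 null and 10.22 in normal Ets2 present fibroblasts. Without *Ets2* it was 1.76-fold higher in ErbB2 fibroblasts (0.81) and 2.42-fold lower in normal fibroblasts (-1.28). *Bnip3*, a receptor for the removal of mitochondria, read 10.63 in ErbB2 Ets2 null, 10.35 in ErbB2 Ets2 present, 10.06 in normal Ets2 null and 11.01 in normal Ets2 present fibroblasts. Its difference was 0.28 in ErbB2 fibroblasts, about 1 robust standard deviation of all genes in that comparison (0.27, a measure of spread that ignores extreme genes), and -0.95 (1.93-fold lower) in normal fibroblasts. *Ddit4* and *Bnip3* had 1 probe set each, so no second reading of the transcript was had.

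**Figure D2:**
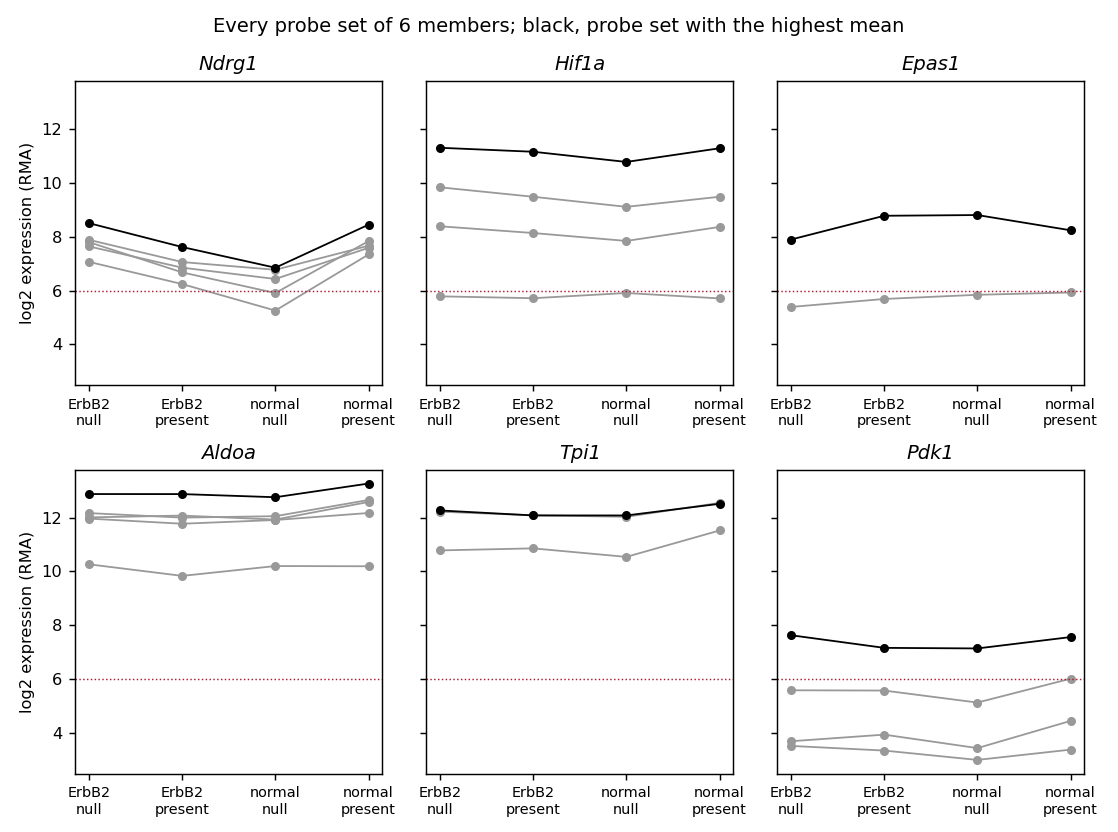
Each panel shows every probe set of 1 member as a line over the 4 arrays (horizontal axis, genotype; vertical axis, log2 expression after RMA), with the probe set of highest mean in black, the others in grey and the limit of log2 6 dotted. The 5 lines of *Ndrg1* run in parallel, with their lowest point on the normal Ets2 null array, while the lines of *Aldoa* do not all share their lowest array.

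*Adm* set itself apart from these. *Adm*, which encodes adrenomedullin, a peptide that dilates vessels and supports their growth, read 9.64 in ErbB2 Ets2 null, 10.36 in ErbB2 Ets2 present, 10.34 in normal Ets2 null and 10.40 in normal Ets2 present fibroblasts. Only the ErbB2 Ets2 null array was low, 1.66-fold lower than the ErbB2 Ets2 present array, and a second probe set gave a log2 difference of -0.65 beside the -0.73 of the first. *P4ha1* and *P4ha2*, subunits of the enzyme that hydroxylates prolines of collagen, differed without *Ets2* by -0.12 and -0.48 in ErbB2 fibroblasts and by -0.30 and -0.39 in normal fibroblasts. *Kdm3a*, a histone demethylase, differed by -0.34 and -0.24 in these comparisons, and *Angptl4*, a secreted inhibitor of lipoprotein lipase, by -0.06 and -0.35. *Car9*, the carbonic anhydrase used as a marker of hypoxic tumours, and *Ankrd37* stayed under log2 6 on every array. Their values of 5.07 to 5.43 and of 5.46 to 5.93 were not shown to be above background.

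Without *Ets2* in ErbB2 fibroblasts the members moved little as a group. In the comparison of ErbB2 Ets2 null with ErbB2 Ets2 present fibroblasts, 0 of 31 members passed 2-fold, against 1.74% of all genes lower and 0.341% higher. At 1.5-fold, *Epas1*, *Egln3* and *Adm* were lower, against 5.64% of all genes, and *Ddit4* and *Ndrg1* were higher, against 2.84%. The difference lay below 0 in 21 of 31 members (67.7%), against 44.2% of all genes, with a median of -0.10 beside 0.04. Most members are bright, and all genes include many dim ones. Of genes whose higher array reached log2 6, 51.8% lay below 0, with a median of -0.01. Of these, 8.34% were past 1.5-fold lower, near the 9.68% of members. In this comparison the 10 epithelial markers had a median difference of -1.89 and the 15 macrophage and myeloid markers one of -1.20, and 9 genes of the cell cycle had a median of -0.57. The 11 skeletal muscle markers had a median of -2.11, with all 11 below 0, and the 8 endothelial markers one of -0.49, with all 8 below 0. The part of these cells and of growth in the members' values was not tested.

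Without *Ets2* in normal fibroblasts nearly all members were lower. In the comparison of normal Ets2 null with normal Ets2 present fibroblasts, *Ddit4* and *Ndrg1* were past 2-fold lower, against 0.357% of all genes, and 0 members were past 2-fold higher, against 0.621%. *Bnip3*, *Slc16a3* and *Pfkl* joined them at 1.5-fold, giving 5 of 31 lower, against 1.87% of all genes, and 0 higher, against 2.31%. The difference lay below 0 in 27 of 31 members (87.1%), against 50.5% of all genes, with a median of -0.30 beside -0.00. Of genes whose higher array reached log2 6, 54.4% lay below 0, with a median of -0.02. Each of the 11 glycolytic enzymes was below 0. *Hk1*, *Hk2*, *Pfkp*, *Aldoc*, *Pgam1*, *Pkm* and *Ldha* were so by less than 1 robust standard deviation of all genes (0.215). *Aldoc* was under log2 6 on every array, and a dimmer probe set of *Pfkp* gave 0.45. *Epas1*, *Pfkfb4*, *Slc2a3* and *Car9* were the members above 0. The 10 epithelial markers had a median difference of 1.53 here, and the 13 fibroblast markers one of -0.47, with 6 of the 13 past 1.5-fold lower. The 11 skeletal muscle markers had a median of -0.75, with 10 below 0 and 7 past 1.5-fold lower, and the 8 endothelial markers one of -0.56, with 7 below 0 and 4 past 1.5-fold lower. The log2 of the summed fibroblast markers was 16.51 on the normal Ets2 null array and 16.78 on the normal Ets2 present array. The part of these markers' cells in the members' values was not tested.

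The ErbB2 and normal comparisons share no array, and their difference was not tested. Of the 14 members with more than 1 probe set that reached log2 6, all such probe sets lay on the same side of 0 in 10 members in ErbB2 fibroblasts (not in *Aldoa*, *Tpi1*, *Pgk1* and *Hk1*) and in 12 in normal fibroblasts (not in *Aldoa* and *Pfkp*). *Ndrg1* and *Ddit4* were past 1.5-fold in each of them, in opposite directions. Past 2 robust standard deviations of all genes in both comparisons (0.54 in ErbB2 and 0.43 in normal fibroblasts), and with opposite signs, lay 3 of 31 members (*Epas1*, *Ddit4* and *Ndrg1*), and 301 of all 18194 genes (1.65%).

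**Figure D3:**
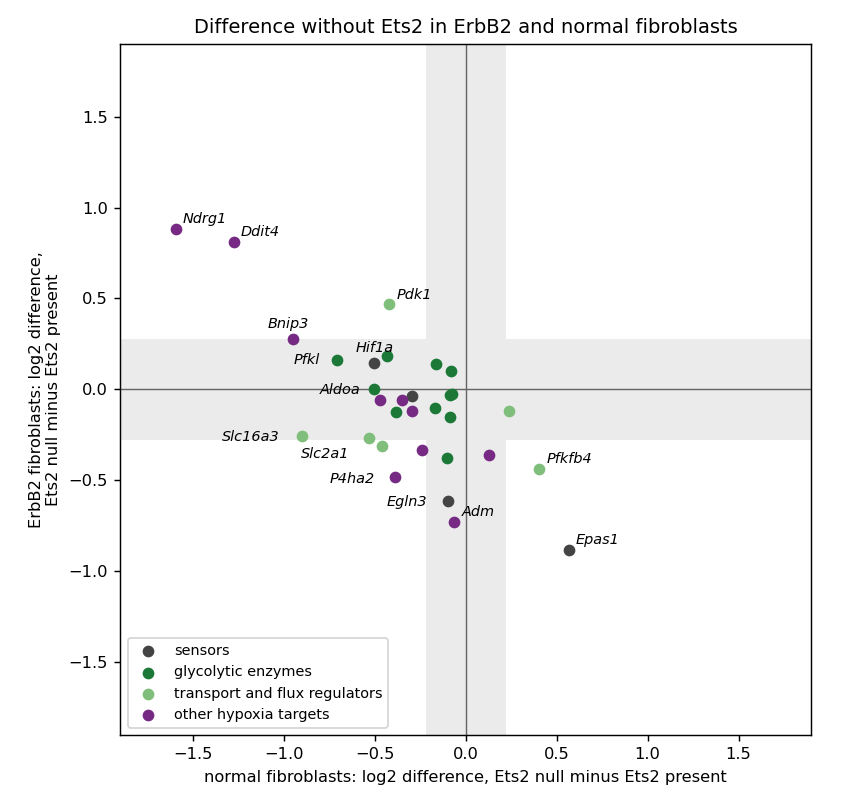
Each point is 1 of the 31 members, with its log2 difference (Ets2 null minus Ets2 present) in normal fibroblasts on the horizontal axis and in ErbB2 fibroblasts on the vertical axis, coloured by role, and the grey bands span 1 robust standard deviation of all genes on either side of 0. *Ndrg1* and *Ddit4* lie at the upper left, *Epas1* at the lower right, and most members lie left of the vertical line.

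The same arrays read the other way give the difference with the oncogene, and these comparisons share their arrays with those above. Among fibroblasts without *Ets2*, *Ndrg1* was 3.14-fold higher (1.65) and *Ddit4* 2.34-fold higher (1.22) in ErbB2 than in normal fibroblasts. These were the 2 members past 2-fold higher, against 0.544% of all genes, and the 2 past 1.5-fold higher, against 2.09%. None was past 2-fold lower, against 1.51%, and *Epas1*, *Egln3* and *Adm* were past 1.5-fold lower, against 3.87%. *Hif1a* differed by 0.53 and its other probe sets above log2 6 by 0.72 and 0.54, *Bnip3* by 0.57 and *Pdk1* by 0.49. The members were spread about evenly, with 17 of 31 (54.8%) below 0 against 45.1% of all genes, and a median of -0.02 beside 0.03. The fibroblast markers had a median of 0.48 and the epithelial markers one of -1.93 in this comparison, and their part in the values was not tested.

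Among fibroblasts with *Ets2* the members were mostly lower with the oncogene. None passed 2-fold in ErbB2 against normal fibroblasts, while 0.17% of all genes were past it lower and 0.83% higher. At 1.5-fold, 5 of 31 were lower, against 1.31% of all genes, and 0 higher, against 2.91%. The 5 were *Ddit4* (-0.86), *Ndrg1* (-0.83), *Pfkl* (-0.82), *Slc16a3* (-0.74) and *Bnip3* (-0.66), the same members that were past 1.5-fold lower without *Ets2* in normal fibroblasts. Both comparisons subtract the normal Ets2 present array, on which these members stood high, so the shared list is not a second observation. The difference lay below 0 in 23 of 31 members (74.2%), against 53.5% of all genes, and in 10 of the 11 glycolytic enzymes, *Aldoc* being the other. *Hk2*, *Pfkp*, *Pgam1* and *Ldha* were below 0 by less than 1 robust standard deviation of all genes (0.2135). Of the 15 myeloid markers 13 were past 1.5-fold higher here, and the epithelial markers had a median difference of 1.68, and their part was not tested.

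**Figure D4:**
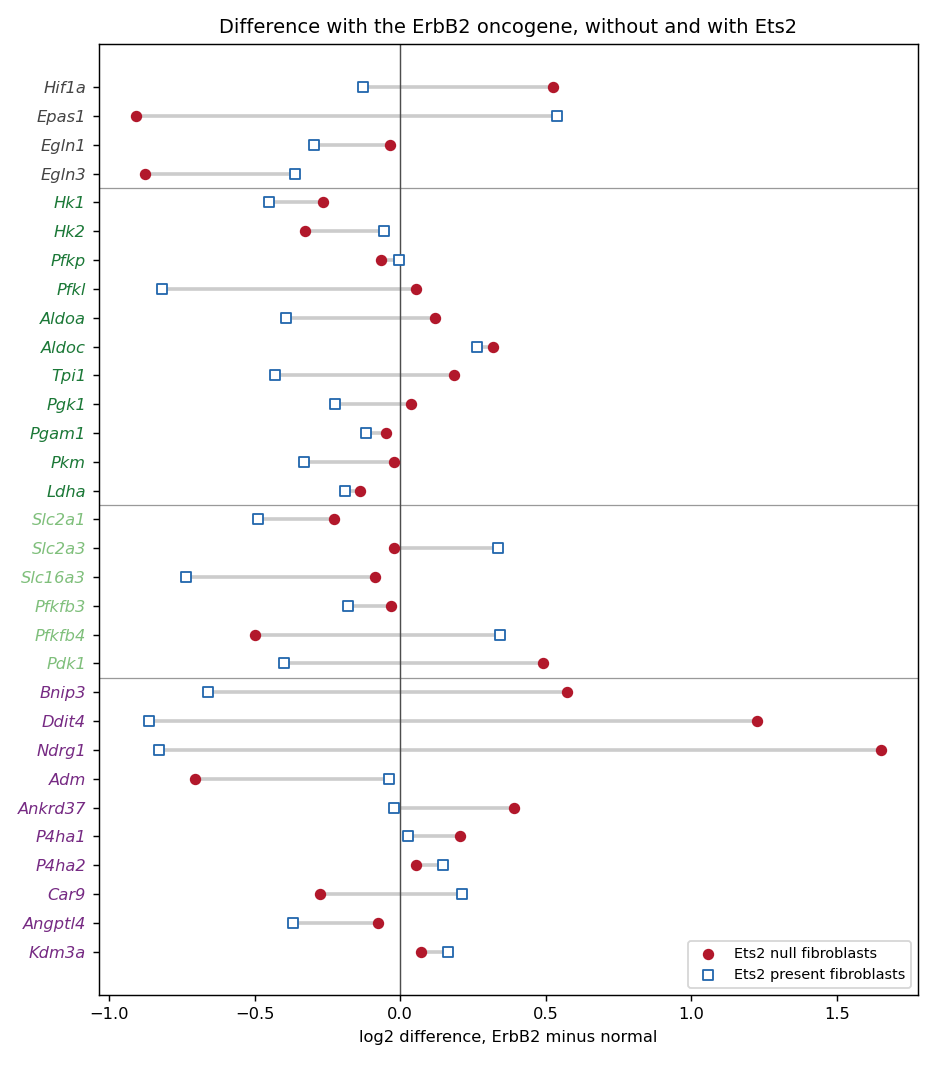
Each row is 1 of the 31 members, with the log2 difference of ErbB2 minus normal fibroblasts on the horizontal axis, as a filled circle without *Ets2* and an open square with *Ets2*. The circle lies far to the right of the square in *Ndrg1* and *Ddit4* and far to its left in *Epas1*.

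The glycolysis genes (enzymes, transporters and regulators, 17 of 19 measured) and the other hypoxia targets (10 of 11 measured) are set side by side by their medians. In ErbB2 fibroblasts without *Ets2*, the median difference was -0.10 for the glycolysis genes and -0.09 for the other targets. In normal fibroblasts without *Ets2* it was -0.17 and -0.37, so that the other targets lay further below 0. With the oncogene it was -0.03 and 0.14 in Ets2 null fibroblasts, and -0.22 and -0.03 in Ets2 present fibroblasts. The gap between the 2 medians was thus near 0 in ErbB2 fibroblasts without *Ets2*, where its sign depended on the probe sets, normalization and genes used. The gap of 0.20 in normal fibroblasts did not persist when members under log2 7 on both arrays were left out, being -0.01 then, and the gap of -0.19 with the oncogene and *Ets2* was -0.0052 between means. Individual targets covered more ground than individual glycolysis genes, from -1.60 to 0.13 against -0.90 to 0.40 in normal fibroblasts. The 2 groups also differed in where they were lowest. The other targets were lowest on the normal Ets2 null array in 7 of 10 cases, among them *Ankrd37*, which was under log2 6 throughout. The glycolysis genes were lowest there in 5 of 17 (29.4%), near the 24.9% of all genes. On the ErbB2 Ets2 null array 8 of 17 glycolysis genes (47.1%) and 3 of 10 other targets were lowest, against 23.7% of all genes. Highest on the normal Ets2 present array were 13 of 17 glycolysis genes (76.5%) and 5 of 10 other targets, against 21.8% of all genes.

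**Figure D5:**
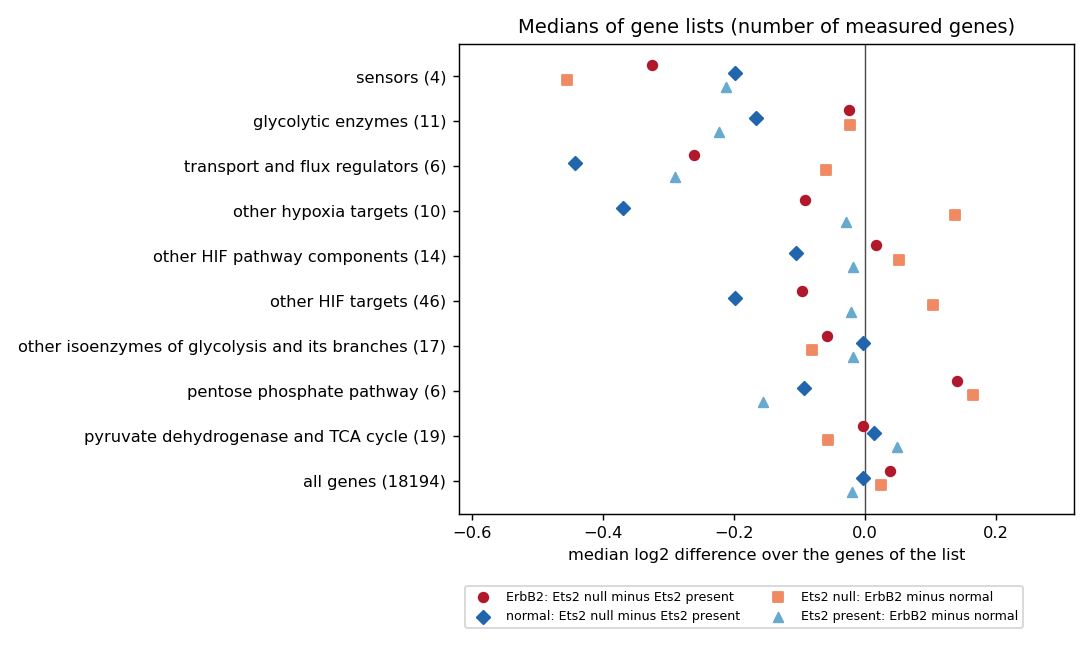
Each row is a gene list with its number of measured genes, and each symbol is the median log2 difference of that list in 1 of the 4 comparisons. The transport and flux regulators and the other hypoxia targets lie furthest to the left in normal fibroblasts without *Ets2* (-0.44 and -0.37), and the medians of all genes lie within 0.04 of 0.

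Beyond the 34 members, 5 wider lists of the pathway were measured in 102 of 114 genes. Of 46 other targets of the hypoxia inducible factors, 26 (56.5%) lay below 0 without *Ets2* in ErbB2 fibroblasts, with a median of -0.10. The share was 44.2% of all genes, and 51.8% of genes whose higher array reached log2 6. In normal fibroblasts 37 (80.4%) lay below 0, against 50.5% of all genes and 54.4% of those reaching log2 6, with a median of -0.20. In ErbB2 fibroblasts 2 of the 46 (4.35%) were past 2-fold lower, against 1.74% of all genes, and 1 (2.17%) higher, against 0.341%, the last being *Ppp1r3c*, which was under log2 6 on every array. In normal fibroblasts 0 of the 46 passed 2-fold, against 0.357% of all genes lower and 0.621% higher. *Vegfa*, the vessel growth factor that is the best known target, read 9.31 in ErbB2 Ets2 null, 9.19 in ErbB2 Ets2 present, 9.40 in normal Ets2 null and 9.56 in normal Ets2 present fibroblasts. Its differences without *Ets2* were 0.11 and -0.16, less than 1 robust standard deviation of all genes in each comparison. The pentose phosphate pathway (6 genes) and the genes of pyruvate dehydrogenase and the TCA cycle (19 genes) had medians of 0.14 and -0.00 in ErbB2 fibroblasts and of -0.09 and 0.01 in normal fibroblasts, and 0 of them passed 2-fold in any comparison. The 14 other components of the factors' pathway had medians of 0.02 in ErbB2 and -0.11 in normal fibroblasts. For 17 other isoenzymes of glycolysis and its branches the medians were -0.06 and -0.00. In normal fibroblasts 52.9% of the 17 lay below 0, with 3 (17.6%) past 1.5-fold higher, against 2.31% of all genes, and 0 lower, against 1.87%.

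In the wider lists 6 genes were past 2-fold in some comparison and reached log2 6 on the higher array. *Edn1*, the endothelin peptide that constricts vessels, read 6.77 in ErbB2 Ets2 null, 8.15 in ErbB2 Ets2 present, 7.97 in normal Ets2 null and 7.53 in normal Ets2 present fibroblasts, and was low on the first array. *Cited2*, which competes with the alpha subunits for their coactivators, read 9.95 in ErbB2 Ets2 null, 10.94 in ErbB2 Ets2 present, 11.36 in normal Ets2 null and 10.70 in normal Ets2 present fibroblasts. The order of its arrays was that of the summed epithelial markers, of the summed skeletal muscle markers and of *Epas1*. The part of epithelial and muscle cells in *Cited2* was not tested. *Cxcr4*, a chemokine receptor, reached log2 6 on the ErbB2 Ets2 present array alone, at 6.68. *Hk3*, a hexokinase known from myeloid cells, read 7.38 in ErbB2 Ets2 null, 8.52 in ErbB2 Ets2 present, 7.46 in normal Ets2 null and 7.60 in normal Ets2 present fibroblasts. *Cxcr4* and *Hk3* were highest on the array where the summed myeloid markers were highest too, at 14.36 against 12.99 to 13.42 on the other 3, and the part of myeloid cells in them was not tested. *Eno2* and *Eno3*, enolases best known from neurons and from muscle, differed by 1.18 and -1.50 between ErbB2 and normal fibroblasts without *Ets2*, the value of *Eno2* in normal Ets2 null fibroblasts (5.64) being under log2 6. The log2 of 11 summed skeletal muscle markers was 10.17 in ErbB2 Ets2 null and 12.12 in normal Ets2 null fibroblasts. *Acta1* alone read 9.37 and 11.89 there, and the median difference of the 11 markers between these arrays was -0.66, with 10 below 0. In normal fibroblasts 10 of the 11 were lower without *Ets2*, with *Acta1* as the exception. The relation of these markers to *Eno3* was not tested.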

How the data were processed

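The authors extracted RNA with Trizol from second passage mammary fibroblasts, hybridised it to Affymetrix Mouse Genome arrays and deposited log2 values summarised by Robust Multichip Average (RMA), which corrects background and forces all arrays to nearly 1 distribution, so that a shift of most genes would be lost. No source used here gives the RMA software version or the probe definitions. The table holds 45101 probe sets, of which 932 carry several gene symbols and were left out. Each gene was read from 1 probe set, that of highest mean level. Levels were compared between arrays only, never between probe sets.

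Differences were taken between arrays, with 2-fold as the main size and 1.5-fold and 4-fold beside it (4-fold being the study's). The robust standard deviation is the scaled median absolute deviation over all genes. Genes named in full are all members, and of the wider lists *Vegfa* and those past 2-fold with the higher array at log2 6 or more. The members, lists and sizes were chosen with earlier results of these data known. Alternatives were centring, quantile and loess (span 0.4) normalization, floors of log2 6 and 7, and other choices of probe set. The steps were tested on simulated data and run in Python 3.11.15 with numpy 2.4.6, pandas 2.3.3, statsmodels 0.14.6 and matplotlib 3.10.9. Arrays of PyMT fibroblasts and endothelial cells were not analysed here.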

Additional observations from a re-analysis of the deposited data

Results flagged for a closer look

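In 3 members and 3 genes of the wider lists the difference without *Ets2* had opposite signs in ErbB2 and normal fibroblasts and passed 2 robust standard deviations of all genes in each, as it did in 1.65% of all genes. With 1 array per genotype the difference between the backgrounds was not tested. It is given as the ErbB2 difference minus the normal difference, on the log2 scale.

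*Ndrg1* had 2.48, from 0.88 in ErbB2 and -1.60 in normal fibroblasts, with all 5 probe sets in the same directions. *Ddit4* had 2.09, from 0.81 and -1.28, on a single probe set. *Epas1* had -1.45, from -0.88 and 0.56, and its second probe set was under log2 6 on all arrays. Of the wider lists, *Edn1* had -1.82, from -1.39 and 0.44. *Cited2* had -1.65, from -0.99 and 0.66. *Bpgm*, which makes and breaks bisphosphoglycerate in a side branch of glycolysis, had -1.22, from -0.68 and 0.54. The epithelial markers also had opposite median differences, -1.89 in ErbB2 and 1.53 in normal fibroblasts, and their part in these values was not tested.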

How the results depend on the processing

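No direction of *Ddit4* and *Ndrg1*, the members past 2-fold, turned under any alternative tried. *Ddit4* has 1 probe set, so the choice of probe set could not change its value. Of the counts and medians, 132 values moved by no more than 1.5 times (counts) or 0.1 (medians), against 24 that moved further. Some of the 132 could not move, since centring leaves a gap between 2 medians as it was. A change of sign within 0.1 was counted as no move, as happened to the gap in ErbB2 fibroblasts. In the order ErbB2 without *Ets2*, normal without *Ets2*, oncogene without *Ets2* and oncogene with *Ets2*, a size of 1.5-fold gave 5, 5, 5 and 5 members in place of 0, 2, 2 and 0. A size of 4-fold gave 0 in the normal comparison and 0 for the oncogene without *Ets2*. With the probe set of largest range, 1 member passed 2-fold for the oncogene with *Ets2*. The other targets then had a median of -0.20 in ErbB2 fibroblasts, and the glycolysis median minus theirs was 0.10 there, in place of -0.01, and -0.28 for the oncogene without *Ets2*. With the mean of all probe sets it was 0.12 in ErbB2 fibroblasts, so its sign depends on the probe sets.

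With members under log2 6 on both arrays left out, the glycolysis median was -0.28 and the gap 0.0932 in normal fibroblasts, and for the oncogene with *Ets2* the other targets had -0.20 and the gap was -0.0726. With log2 7 the glycolysis median was -0.38 and the gap -0.0137 in normal fibroblasts, and for the oncogene with *Ets2* the glycolysis genes had -0.33 and the other targets -0.20. As means in place of medians, the other targets had -0.55 in normal fibroblasts, 0.31 for the oncogene without *Ets2* (gap -0.34) and -0.22 with it (gap -0.0052). *Ndrg1* in normal fibroblasts ranged from -2.08 to -1.16 over 8 alternatives, and for the oncogene without *Ets2* from 1.21 to 1.81. No paired analysis was possible because each genotype has 1 array, and none could be left out. The number of arrays limits the precision of every value.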

Other observations

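Other genes of the wider lists, chosen after their values were seen, are given as values. *Ldhb*, the lactate dehydrogenase subunit that favours pyruvate, read 9.88 in ErbB2 Ets2 null, 9.26 in ErbB2 Ets2 present, 10.39 in normal Ets2 null and 9.42 in normal Ets2 present fibroblasts. It was higher without *Ets2* in both backgrounds (0.62 and 0.97), while *Ldha* differed by -0.03 and -0.09. *Pfkm*, the muscle phosphofructokinase, differed by 0.63 without *Ets2* in ErbB2 fibroblasts and by 0.02 in normal fibroblasts, against 0.16 and -0.71 for *Pfkl*. *Pygl*, a glycogen phosphorylase, read 7.44 in ErbB2 Ets2 null, 7.58 in ErbB2 Ets2 present, 7.03 in normal Ets2 null and 7.94 in normal Ets2 present fibroblasts, and *Fam162a*, a mitochondrial protein induced by low oxygen, read 11.44, 11.05, 11.12 and 11.78 in the same order. Both were highest on the normal Ets2 present array. *Hmox1*, the heme oxygenase, read 11.01 in ErbB2 Ets2 present fibroblasts, against 10.05 to 10.16 on the other 3 arrays. The summed myeloid markers were highest on that array too, and their part in *Hmox1* was not tested.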
